A study of Mus musculus with 12 samples.

Results

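YAP and its close relative TAZ are the transcriptional co-activators at the end of the Hippo pathway, and 10 genes of that arm were followed through the loss of Trim33 in differentiating mouse embryonic stem cells. They were taken by symbol from 24015 gene rows: the co-activators Yap1 and Wwtr1 (which encodes TAZ), the DNA-binding partners Tead1, Tead2 and Tead4, the target genes Ctgf, Cyr61 and Ankrd1, and Amotl2 and Lats2, targets that also restrain the pathway. All 10 were found, and 9 passed the filter on low counts. Ankrd1 did not and is described by its counts.

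The 12 RNA libraries came from embryoid bodies, the aggregates that embryonic stem cells form in suspension. The 4 groups of 3 libraries were control and Trim33-deficient bodies, each on day 2 and day 2.5 of differentiation. All lines, of outbred strain and at passages 8 to 10, derived from embryos homozygous for a Trim33-flox allele with the UbcCreERT2 transgene, a tamoxifen-dependent Cre recombinase. They were grown feeder-free with LIF and 2i, 4OH-tamoxifen was used to induce Trim33 deficiency on day 1, and the control group carries the genotype label wildtype. Whether controls received 4OH-tamoxifen, and how many lines there were, is not given in the sources used here. Independent pairs are mentioned in the labels, but not what the replicates of a group share, so p-values measure only the spread between these libraries, part of which may be technical. The series asks which genes differ between control and Trim33-deficient bodies. Trim33 encodes a chromatin-binding regulator of TGF-beta family signalling.

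In the Hippo pathway, a kinase chain ending in LATS1 and LATS2 phosphorylates YAP and TAZ and keeps them out of the nucleus. Unphosphorylated YAP and TAZ enter the nucleus and bind TEAD proteins at a short DNA motif near their target genes. In the early mouse embryo the pathway is known for separating outer trophectoderm, where YAP and TEAD4 are active, from the inner cell mass. RNA levels do not report the location or phosphorylation of the proteins.

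Promoter sequences are shown for members whose RNA rose, Cyr61, Amotl2 and Lats2, and for Ankrd1, a member close to the detection limit, so that the TEAD motif can be seen in its setting. Each is the run of 250 bases before the RefSeq start of the gene on build GRCm38.p6, read 5′ to 3′ on the strand of the gene. Capitals mark the letters of the TEAD motif GGAATG or its reverse complement. The coordinates are chr3:145649986-145650235 (minus strand) for Cyr61, chr9:102717554-102717803 (plus strand) for Amotl2, chr19:36119845-36120094 (minus strand) for Ankrd1 and chr14:57746124-57746373 (minus strand) for Lats2.
Cyr61: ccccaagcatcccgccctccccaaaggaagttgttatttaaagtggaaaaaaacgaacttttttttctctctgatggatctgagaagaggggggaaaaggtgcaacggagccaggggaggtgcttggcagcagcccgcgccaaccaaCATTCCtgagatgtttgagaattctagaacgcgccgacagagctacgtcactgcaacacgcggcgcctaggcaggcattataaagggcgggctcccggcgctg
Amotl2: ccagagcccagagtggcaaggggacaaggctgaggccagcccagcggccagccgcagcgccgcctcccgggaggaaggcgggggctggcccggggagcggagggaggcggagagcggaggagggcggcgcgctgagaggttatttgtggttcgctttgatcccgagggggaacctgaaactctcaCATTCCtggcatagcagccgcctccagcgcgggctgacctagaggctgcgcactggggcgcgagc
Ankrd1: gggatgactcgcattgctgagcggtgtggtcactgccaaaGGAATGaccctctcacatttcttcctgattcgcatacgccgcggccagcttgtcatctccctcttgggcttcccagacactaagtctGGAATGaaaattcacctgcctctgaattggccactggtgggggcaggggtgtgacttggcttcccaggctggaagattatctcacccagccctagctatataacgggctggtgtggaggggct
Lats2: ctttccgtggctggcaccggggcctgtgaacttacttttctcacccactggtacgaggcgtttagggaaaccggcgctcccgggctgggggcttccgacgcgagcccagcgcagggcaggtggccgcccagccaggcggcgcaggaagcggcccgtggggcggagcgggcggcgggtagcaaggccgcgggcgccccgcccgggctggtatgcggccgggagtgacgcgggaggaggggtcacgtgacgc
The Cyr61 match lay 103 bases and the Amotl2 match 65 bases before the start, both on the opposite strand. Ankrd1 held a pair of matches, 210 and 123 bases before the start. The Lats2 run shown holds none, and its match began at base 5 after the start.

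The RefSeq promoter table held 7 of the 10 members. Tead1, Tead4 and Ctgf had no entry. Counting the 50 bases after the start as well, 6 of these 7 members had GGAATG on either strand in at least 1 window, against 16.6% of 27025 genes and 14.7% of 32851 windows. Yap1 had its match 141 bases before the start, and the overlapping pair of Wwtr1 windows shared 1 match, 136 or 170 bases before the start each window uses. Tead2 had no match, nor did the second Lats2 window. The AP-1 motif TGANTCA was in 0 of the 7 members, against 8.97% of genes, and the CArG box, the element bound by SRF, was in 0 of 7, against 1.81% of genes. A match describes these letters only, and the counts say nothing of binding.

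**Figure D1:**
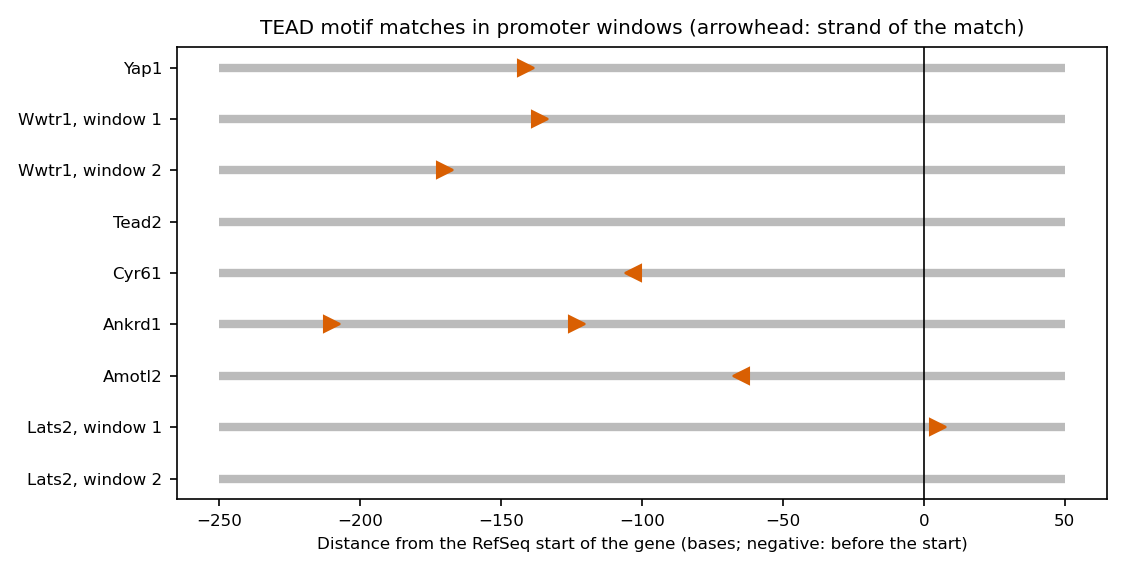
Position of TEAD motif matches (arrowheads, pointing along the strand of the match) in each RefSeq promoter window of the 7 members with an entry, with the distance from the start of the gene in bases on the x axis. Matches before the start lie between 65 and 210 bases from it, and Tead2 has none.

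Libraries held 10066338 to 16529627 counts assigned to genes. Levels are given as CPM, read counts scaled for sequencing depth with TMM factors. The floor of 3 counts is 0.179 to 0.318 CPM, which covers counting error only. Trim33 was at 239 to 277 CPM in all control libraries and at 54.4 to 69.6 CPM in all Trim33-deficient ones. Its log2 fold change was -2.03 ± 0.06 (SE) on day 2 and -2.10 ± 0.06 on day 2.5 (adjusted p = 1e-11 and 6.35e-12, edgeR quasi-likelihood test). Pou5f1, a defining gene of pluripotent cells, was at 766 to 976 CPM in every library. Rn45s, the precursor of ribosomal RNA, made up 11.9% of counts for day 2.5 control replicate 2, 7.87% for day 2 Trim33-deficient replicate 1 and 0.609 to 1.67% elsewhere. Replicate 2 of both control groups held more RNA of 14 hypoxia and glycolysis genes, all higher than in the rest of the group, by a mean of 0.77 on day 2 and 0.62 on day 2.5 on the log2(CPM + 1) scale, against -0.55 to 0.06 in the other 10 libraries. The Rn45s-rich pair and day 2 control replicate 2 are the 3 libraries referred to below as standing apart. Day 2.5 control replicate 2 had the highest CPM of its group for all 10 members, against 38.6% of the genes tested, and day 2.5 Trim33-deficient replicate 3 that of its group for 9 of 10 members, against 36.5%.

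On day 2, 1 day after induction, 5 of the 9 members tested rose in Trim33-deficient bodies and 0 fell: Ctgf, Cyr61, Amotl2, Lats2 and Tead1 (edgeR, adjusted p under 0.05 over 14356 genes). Of all genes tested, 9.84% passed in either direction, 5.94% as a rise and 3.9% as a fall. At an unadjusted p under 0.05, 1 member, Tead2, was lower, and DESeq2 called it. On day 2.5, 5 members rose, again Ctgf, Cyr61, Amotl2, Lats2 and Tead1, and 2 fell, Tead2 and Yap1. That day 42.8% of all genes passed, 22% as a rise and 20.7% as a fall. The median log2 fold change of the 9 members was 0.43 on day 2 and 0.37 on day 2.5, and that of all genes tested was -0.005 and -0.01. In bulk libraries such as these, fewer cells of a type and less RNA per cell cannot be told apart.

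**Figure D2:**
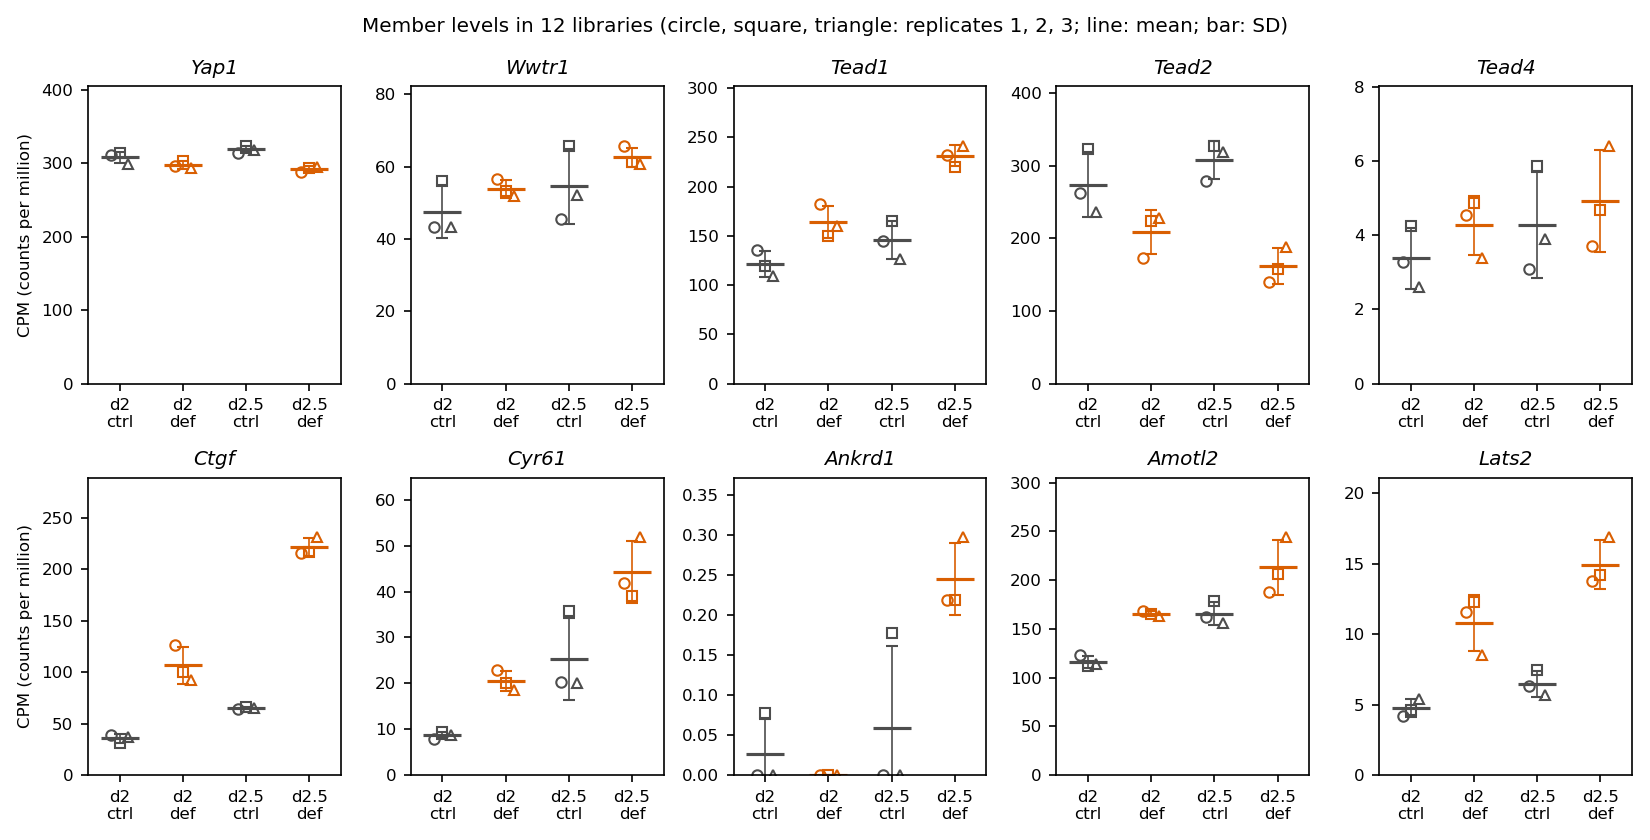
CPM of each member in each of the 12 libraries (points), with the mean and SD (n = 3) of each group, on a y axis of its own per gene. Ctgf, Cyr61, Amotl2, Lats2 and Tead1 lie higher in every Trim33-deficient library than in any control library of the same day, and Tead2 lies lower.

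The co-activator genes differed by 0.20 or less on the log2 scale between genotypes. Yap1 was measured on day 2 at 311, 314 and 299 CPM in controls and at 296, 303 and 294 CPM in Trim33-deficient bodies. On day 2.5 the values were 314, 324 and 318 CPM against 288, 294 and 295 CPM. The day 2 groups overlapped, while on day 2.5 each Trim33-deficient library was below each control. The log2 fold change was -0.05 ± 0.04 on day 2 (adjusted p = 0.499) and -0.13 ± 0.04 on day 2.5 (adjusted p = 0.0189), a fall of 1.09-fold. The fall no longer passed without day 2.5 control replicate 2 (adjusted p = 0.0739), without day 2.5 Trim33-deficient replicate 1 (0.0683) or without both Rn45s-rich libraries (0.0673).

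Wwtr1 was measured on day 2 at 43.3, 55.9 and 43.4 CPM in controls and at 56.4, 53.3 and 51.8 CPM in Trim33-deficient bodies. On day 2.5 it stood at 45.5, 65.8 and 52.2 CPM against 65.7, 61.2 and 60.7 CPM. Replicate 2 was the highest control on both days and lay inside or above the Trim33-deficient range. The log2 fold change was 0.18 ± 0.12 (adjusted p = 0.408; 95% interval -0.11 to 0.46) on day 2 and 0.20 ± 0.12 (adjusted p = 0.184; interval -0.07 to 0.48) on day 2.5. Without day 2.5 control replicate 2, the day 2.5 value was 0.36 and passed (adjusted p = 0.00846). Without all 3 libraries that stood apart, it was 0.28 on day 2 (adjusted p = 0.0223) and 0.36 on day 2.5 (adjusted p = 0.000207). Other alternatives raised the adjusted p to as much as 0.687 on day 2 and 0.557 on day 2.5.

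Among the TEAD factors, which bring YAP and TAZ to DNA, Tead1 and Tead2 moved in opposite directions. Tead1 was measured on day 2 at 136, 120 and 109 CPM in controls and at 182, 150 and 160 CPM in Trim33-deficient bodies. On day 2.5 the values were 145, 165 and 126 CPM against 232, 220 and 242 CPM. Trim33-deficient libraries were above controls on both days without overlap. Tead1 rose 1.34-fold on day 2 (log2 fold change 0.43 ± 0.10, adjusted p = 0.0208) and, on day 2.5, 1.60-fold (0.67 ± 0.10, adjusted p = 0.000165). The day 2 call rested on single libraries: the adjusted p was 0.0633 when control replicate 2 was left out, 0.0814 when control replicate 3 was, and 0.0791 when Trim33-deficient replicate 1 was, with log2 values of 0.42, 0.36 and 0.35.

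Tead2, a TEAD factor expressed from the earliest stages of the embryo, was measured on day 2 at 262, 323 and 236 CPM in controls and at 173, 224 and 228 CPM in Trim33-deficient bodies. On day 2.5 it stood at 279, 328 and 318 CPM against 139, 158 and 189 CPM. On both days every Trim33-deficient library was below every control. The day 2 difference of -0.39 ± 0.15 on the log2 scale did not pass in edgeR (adjusted p = 0.14), and over the alternatives its adjusted p ran from 0.0245 (DESeq2) to 0.639. The value was -0.25 without day 2 control replicate 2 and -0.13 without the 3 libraries that stood apart. On day 2.5 Tead2 fell 1.90-fold (log2 fold change -0.92 ± 0.15, adjusted p = 0.000753).

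The ratio of Tead1 to Tead2 counts does not depend on library scaling, and was computed after the values of both genes had been seen. On day 2 it was 0.519, 0.371 and 0.464 in controls and 1.05, 0.671 and 0.700 in Trim33-deficient bodies. On day 2.5 it was 0.521, 0.503 and 0.397 in controls and 1.67, 1.39 and 1.28 in Trim33-deficient bodies. Each Trim33-deficient library was above all controls of its day, which had to be so, since Tead1 lay above and Tead2 below them without overlap. An exact two-sided permutation test could thus only give p = 0.1 on either day, the smallest p for 3 against 3. The ratio is a description and no separate evidence. It is a ratio of counts and not corrected for transcript length.

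Tead4, the TEAD factor of trophectoderm, was low throughout. It was measured on day 2 at 3.28, 4.25 and 2.60 CPM in controls and at 4.56, 4.88 and 3.38 CPM in Trim33-deficient bodies, and on day 2.5 at 3.08, 5.86 and 3.90 CPM against 3.71, 4.68 and 6.43 CPM. The groups overlapped on both days. The log2 fold change was 0.33 ± 0.27 on day 2 (95% interval -0.30 to 0.96, adjusted p = 0.499) and 0.25 ± 0.25 on day 2.5 (interval -0.34 to 0.83, adjusted p = 0.46).

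Of the target genes, Ctgf, a secreted matrix-associated protein of the CCN family, rose most. On day 2 Ctgf was measured at 39.1, 31.0 and 36.5 CPM in controls and at 127, 100.1 and 92.6 CPM in Trim33-deficient bodies. On day 2.5 the values were 64.3, 65.7 and 65.0 CPM against 216, 217 and 231 CPM. Even the lowest Trim33-deficient library of day 2 was above all controls of day 2.5. Ctgf rose 2.98-fold on day 2 (log2 fold change 1.57 ± 0.11, adjusted p = 1.39e-06) and, on day 2.5, 3.40-fold (1.77 ± 0.10, adjusted p = 3.74e-08). In the GENCODE M21 annotation of GRCm38, 665 of its 2861 exon bases overlap Gm15270 on the opposite strand, and the strand setting of the counting is not given in the sources used here, so reads of the 2 genes cannot be told apart there.

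Cyr61 encodes another secreted CCN protein. It was measured on day 2 at 7.93, 9.36 and 8.73 CPM in controls and at 22.8, 20.1 and 18.6 CPM in Trim33-deficient bodies. On day 2.5 it stood at 20.2, 35.7 and 20.1 CPM in controls and at 41.8, 39.1 and 51.9 CPM in Trim33-deficient bodies. The groups did not overlap on either day, and control replicate 2 was far above the other controls on day 2.5. Cyr61 rose 2.34-fold on day 2 (log2 fold change 1.23 ± 0.23, adjusted p = 0.00933) and, on day 2.5, 1.78-fold (0.83 ± 0.19, adjusted p = 0.00491). Without day 2.5 control replicate 2, the day 2.5 value was 1.15 ± 0.12 on the log2 scale (adjusted p = 3.74e-06).

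Ankrd1, a nuclear ankyrin-repeat protein known as a YAP target in many cell types, was at the limit of detection. It had 0, 1 and 0 counts in day 2 controls, 0, 0 and 0 counts in day 2 Trim33-deficient bodies, 0, 2 and 0 counts in day 2.5 controls and 3, 3 and 5 counts in day 2.5 Trim33-deficient bodies. Only 1 library was above the floor of 3 counts. With no filter on low counts, edgeR gave an adjusted p of 0.122 for genotype on day 2.5 and of 0.0382 for time in Trim33-deficient bodies, where the total went from 0 to 11 counts. Fitted fold changes of so few counts depend on the prior count and are not given.

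Amotl2 and Lats2 are targets that feed back on the pathway. Amotl2 encodes an angiomotin family protein that binds YAP and holds it at cell junctions. It was measured on day 2 at 123, 111 and 114 CPM in controls and at 168, 165 and 163 CPM in Trim33-deficient bodies. On day 2.5 the values were 162, 179 and 156 CPM against 188, 207 and 244 CPM. The groups did not overlap on either day. Amotl2 rose 1.42-fold on day 2 (log2 fold change 0.51 ± 0.08, adjusted p = 0.00194) and, on day 2.5, 1.29-fold (0.37 ± 0.08, adjusted p = 0.00186).

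Lats2, the kinase that phosphorylates YAP and TAZ, was measured on day 2 at 4.16, 4.64 and 5.43 CPM in controls and at 11.6, 12.3 and 8.54 CPM in Trim33-deficient bodies. On day 2.5 it stood at 6.30, 7.46 and 5.67 CPM against 13.7, 14.2 and 16.9 CPM. All Trim33-deficient libraries were above all controls of either day. Lats2 rose 2.26-fold on day 2 (log2 fold change 1.18 ± 0.17, adjusted p = 0.000793) and, on day 2.5, 2.33-fold (1.22 ± 0.16, adjusted p = 2.09e-05). In GENCODE M21, 2955 of its 6971 exon bases are shared with Gm49361 on the same strand, so its level is uncertain to that extent. Overlaps with genes on the opposite strand covered 116 of 9257 exon bases of Yap1 and 13 of 4788 of Tead2, and 0 of the other 6 members.

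**Figure D3:**
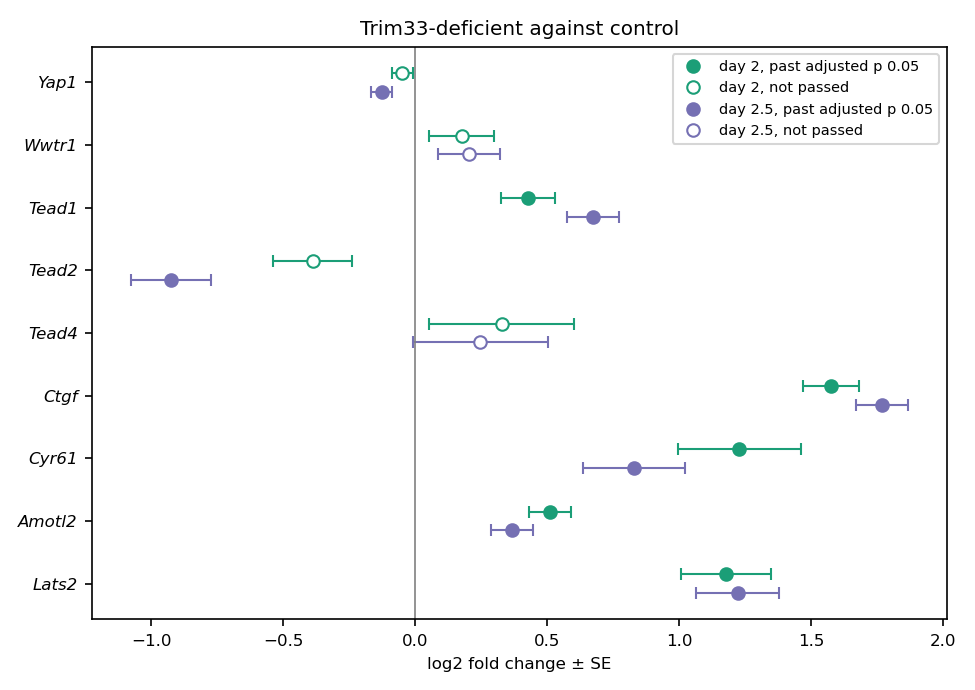
Log2 fold change ± SE (x axis) of Trim33-deficient against control bodies for the 9 members tested, on day 2 and day 2.5 (colours). Filled points passed an adjusted p of 0.05 and open points did not, with Ctgf at 1.57 and 1.77 and Tead2 at -0.39 and -0.92.

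On the scale of non-overlap, 5 members lay higher and 1 lower in all Trim33-deficient libraries on day 2, against 14.9% and 14.5% of all genes tested. On day 2.5, 5 of the 9 tested lay higher and 2 lower, against 26.7% and 26.2%.

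Between day 2 and day 2.5, Ctgf, Cyr61 and Amotl2 rose in bodies of both genotypes. In controls these were the 3 members of 9 that rose and 0 fell, by edgeR, against 16.1% of all genes passing, 8.2% as a rise and 7.91% as a fall. No member was lower at an unadjusted p under 0.05 in controls, and DESeq2 also called 3. In Trim33-deficient bodies 5 of 9 rose, against 16% of all genes passing, 9.09% as a rise and 6.93% as a fall: Ctgf, Cyr61, Amotl2, Tead1 and Lats2. By edgeR 0 fell there, with 1 member, Tead2, lower at an unadjusted p under 0.05. Its adjusted p over the alternatives ran from 0.0341 (DESeq2) to 0.33. These comparisons use the same libraries as those between genotypes, so the values below are set side by side and are not separate evidence.

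Of the 9 members, Cyr61 had the greatest rise with time in controls, 2.88-fold (log2 fold change 1.52 ± 0.23, adjusted p = 0.00129). It rose 2.18-fold in Trim33-deficient bodies (1.12 ± 0.20, adjusted p = 0.00316). With 1 library left out, the log2 value for Cyr61 ranged from 1.21 to 1.67 in controls and from 0.99 to 1.20 in Trim33-deficient bodies. Ctgf rose 1.83-fold in controls (0.87 ± 0.11, adjusted p = 0.000186) and 2.09-fold in Trim33-deficient bodies (1.06 ± 0.10, adjusted p = 9.89e-06). Amotl2 rose by 0.51 ± 0.08 on the log2 scale in controls (adjusted p = 0.000861) and by 0.37 ± 0.08 in Trim33-deficient bodies (adjusted p = 0.00648). The Amotl2 levels of day 2 Trim33-deficient libraries, 163 to 168 CPM, lay inside the 156 to 179 CPM of day 2.5 controls.

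Tead1 rose with time by 0.50 ± 0.10 in Trim33-deficient bodies (adjusted p = 0.00493), while in controls the value was 0.26 ± 0.10 (adjusted p = 0.11). Without day 2.5 control replicate 3, the control value was 0.35 and passed (adjusted p = 0.0378). Over all alternatives the adjusted p in controls reached 0.356. Tead2 had a value of 0.17 in controls (adjusted p = 0.476) and of -0.37 ± 0.15 in Trim33-deficient bodies (adjusted p = 0.133). Lats2 rose by 0.48 ± 0.15 in Trim33-deficient bodies (adjusted p = 0.0379) and had a value of 0.44 ± 0.18 in controls (adjusted p = 0.113). The Lats2 call was lost without day 2 Trim33-deficient replicate 3 (adjusted p = 0.198) or without any 1 of the day 2.5 Trim33-deficient libraries (0.0643, 0.0783 and 0.146 for replicates 1, 2 and 3). Yap1, Wwtr1 and Tead4 passed in neither genotype, with log2 values between -0.03 and 0.31. In Trim33-deficient bodies Wwtr1 did pass when only the compared groups were fitted (0.22, adjusted p = 0.0131). It also passed there without the 3 libraries that stood apart (0.25, adjusted p = 0.0087), while over all alternatives its adjusted p reached 0.454.

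**Figure D4:**
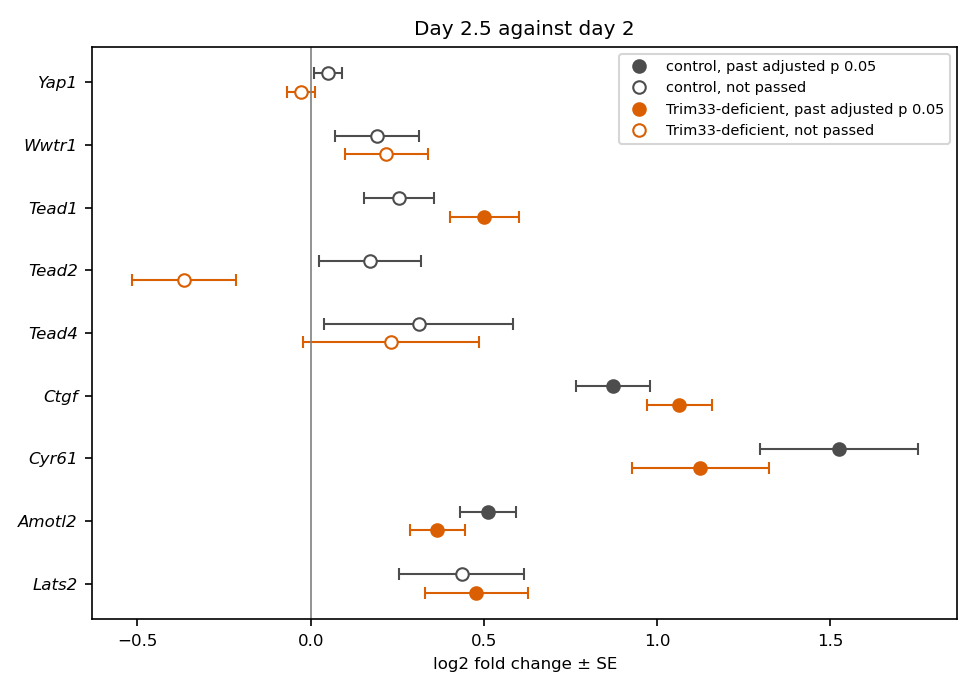
Log2 fold change ± SE (x axis) of day 2.5 against day 2 for the 9 members tested, in control and Trim33-deficient bodies (colours), filled where the adjusted p was under 0.05. Ctgf, Cyr61 and Amotl2 are filled in both genotypes, and Tead2 lies at 0.17 in controls and -0.37 in Trim33-deficient bodies.

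Whether the genotype effect itself changed between the days was tested as an interaction. By edgeR 0 of 9 members passed, against 4.01% of all genes (2.77% with a positive and 1.24% with a negative difference). The 575 genes behind that share became 119 without day 2 control replicate 3 and 1217 without day 2 control replicate 2. Of the members 1, Tead2, was under an unadjusted p of 0.05. For Tead2 the genotype effect was more negative on day 2.5 than on day 2 by -0.54 ± 0.21 on the log2 scale (95% interval -1.02 to -0.05, adjusted p = 0.182), with adjusted p over the alternatives from 0.0498 (DESeq2) to 0.346. The difference was 0.19 for Ctgf (interval -0.14 to 0.52, adjusted p = 0.475), -0.40 for Cyr61 (-1.10 to 0.30, adjusted p = 0.493) and 0.25 for Tead1 (-0.08 to 0.57, adjusted p = 0.346). Without the 3 libraries that stood apart, the Ctgf difference was 0.42 and passed (adjusted p = 0.00258), while over all alternatives the adjusted p reached 0.76. Lats2 had a difference of 0.04 (interval -0.50 to 0.59) and Amotl2 of -0.14 (-0.41 to 0.12). Apart from that of Tead2, these intervals include differences of either sign.

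Compared per kilobase of exon (CPM divided by the exon length in GENCODE M21, which may not be the isoform these cells use), Tead2 and Yap1 led in day 2 controls at 57.1 ± 9.36 and 33.3 ± 0.846 CPM per kilobase (SD, n = 3). Amotl2 followed at 18.5 ± 1.00, then Ctgf at 12.4 ± 1.44, Wwtr1 at 9.95 ± 1.52 and Tead1 at 8.97 ± 0.981 CPM per kilobase. Wwtr1 and Tead1 did not differ beyond their spread. Cyr61 stood at 4.30 ± 0.355, Tead4 at 0.939 ± 0.231, Lats2 at 0.681 ± 0.0917 and Ankrd1 at 0.00893 CPM per kilobase, the last from 1 count in all.

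By day 2.5 in Trim33-deficient bodies the order had Ctgf first, at 77.4 ± 3.05 CPM per kilobase. Amotl2 and Tead2 followed at 33.9 ± 4.54 and 33.9 ± 5.19, with Yap1 at 31.6 ± 0.419, and these 3 did not differ beyond their spread. Cyr61 at 21.9 ± 3.35 and Tead1 at 17.1 ± 0.790 came next, ahead of Wwtr1 at 13.1 ± 0.576 CPM per kilobase. Lats2 stood at 2.14 ± 0.245 and Tead4 at 1.37 ± 0.383 CPM per kilobase, the lowest of the 9 members tested.

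Ctgf was the member with the greatest genotype effect on both days, and the genes whose levels followed it most closely over the 12 libraries were looked up among 13485 genes with a mean of at least 1 CPM. By Pearson's r of log2 CPM these were Ccdc85a (0.99), Egfr (0.988), Mme (0.988), Fgfbp1 (0.987) and Sft2d2 (0.981). Among the members, Lats2 had an r of 0.956 with Ctgf (rank 47), Tead1 of 0.946 (rank 85), Amotl2 of 0.918 (rank 223) and Cyr61 of 0.888 (rank 437). Wwtr1 stood at 0.66 and Tead4 at 0.511. Yap1 ran the other way at -0.676, as did Tead2 at -0.818. The 12 points share 4 groups and the library scaling, so these values describe the libraries and carry no p.

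The rest of the pathway was described from lists. Of 30 genes for Hippo kinases and their regulators, 3 rose and 0 fell on day 2 in Trim33-deficient bodies (edgeR), where 2 were lower at an unadjusted p under 0.05, and 5 rose and 5 fell on day 2.5. The share called was 10% and 33.3%, against 9.84% and 42.8% of all genes. The list's median log2 fold change was 0.03 and 0.00, close to that of all genes. Ajuba, a LIM-domain protein that binds LATS kinases, rose on both days, from 276 ± 21.3 to 396 ± 34.3 CPM on day 2 (log2 fold change 0.52 ± 0.07, adjusted p = 0.00035) and from 306 ± 9.77 to 436 ± 27.0 CPM on day 2.5 (0.51 ± 0.07, adjusted p = 2.74e-05). Wwc2, of the KIBRA family, rose by 0.36 on day 2 (adjusted p = 0.0136) and by 0.35 on day 2.5 (adjusted p = 0.00269). Its day 2 call was lost in 2 of 23 alternatives (highest adjusted p 0.0634), and its day 2.5 call in 0. On day 2.5 the kinase Map4k5 rose by 0.32 (adjusted p = 0.000301) and the kinase Taok3 fell by 0.61 (adjusted p = 0.000374). Map4k2 passed on day 2 at 0.27 (adjusted p = 0.0415) but failed in 15 of 23 alternatives. The day 2 count of 3 was 1 without day 2 control replicate 3 or without day 2 Trim33-deficient replicate 1, and 5 without the 3 libraries that stood apart.

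Tead3, the remaining TEAD gene, had levels of 19.8 ± 1.05 and 20.9 ± 1.25 CPM on day 2 and of 18.6 ± 1.16 and 19.6 ± 0.386 CPM on day 2.5, in control and Trim33-deficient bodies. Its log2 fold change was 0.07 on either day (adjusted p = 0.63 and 0.532). Of the 3 genes tested in the list of Tead3 and the Vgll co-factors, which compete with YAP for TEAD proteins, Vgll3 rose on day 2.5, from 3.41 ± 0.730 to 9.47 ± 1.16 CPM (1.45 ± 0.21, adjusted p = 5.23e-05). On day 2, edgeR and DESeq2 called 0 of the 3, and 1 was higher at an unadjusted p under 0.05.

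Of 17 further genes of a published YAP and TAZ target signature, 13 were tested. On day 2, 3 rose and 0 fell, with 1 lower at an unadjusted p under 0.05, and on day 2.5, 6 rose and 1 fell. The share called was 23.1% and 53.8%, against 9.84% and 42.8% of all genes, of which 22% rose and 20.7% fell on day 2.5. The median log2 fold change was 0.20 on day 2 and 0.14 on day 2.5. Ptpn14, a phosphatase that binds YAP, rose from 136 ± 23.0 to 209 ± 12.5 CPM on day 2 (0.62 ± 0.10, adjusted p = 0.00272) and from 196 ± 8.74 to 321 ± 24.9 CPM on day 2.5 (0.71 ± 0.10, adjusted p = 8.33e-05). The day 2 call of Ptpn14 ended without the 3 libraries that stood apart, at 0.51. Arhgef17 rose by 0.30 on day 2 (adjusted p = 0.00933) and had a value of 0.03 on day 2.5 (adjusted p = 0.757). Asap1 rose by 0.20 on day 2 (adjusted p = 0.0497), with the call lost in 19 of 23 alternatives. Its day 2.5 value was 0.09 (adjusted p = 0.221). F3, tissue factor, and Myof, myoferlin, rose on day 2.5, by 1.12 ± 0.13 (adjusted p = 7.46e-06) and 1.07 ± 0.18 (adjusted p = 0.000191).

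Among the other CCN genes, relatives of Ctgf and Cyr61, 2 of 4 were tested. Nov rose on day 2.5 from 1.20 ± 0.257 to 2.18 ± 0.344 CPM (0.87 ± 0.31, adjusted p = 0.031), a call lost by DESeq2 and without any 1 of 4 day 2.5 libraries. On day 2, 0 of the 2 passed by edgeR or DESeq2, and 0 had an unadjusted p under 0.05.

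Genes of SRF and the actin cytoskeleton, which respond to the same mechanical cues as YAP and share targets with it, moved the other way on day 2.5, where 10 of 16 fell and 2 rose against 20.7% and 22% of all genes. The median log2 fold change of the list was -0.17 on day 2 and -0.54 on day 2.5. On day 2.5 Zyx, zyxin, fell by 0.58 (adjusted p = 3.22e-05) and Srf by 0.55 (adjusted p = 0.000134), and the SRF co-activator gene Mkl2 rose by 0.59 (adjusted p = 3.98e-05). Tagln, chosen after its values were seen, fell from 29.5 ± 9.34 to 11.8 ± 1.90 CPM (log2 fold change -1.29 ± 0.19, adjusted p = 0.000161). On day 2, 1 of 16 rose, Mkl2, and 0 fell by edgeR, with 6 lower at an unadjusted p under 0.05 and 1 called lower by DESeq2. That day 2 count was 0 to 4 when 1 library was left out.

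**Figure D5:**
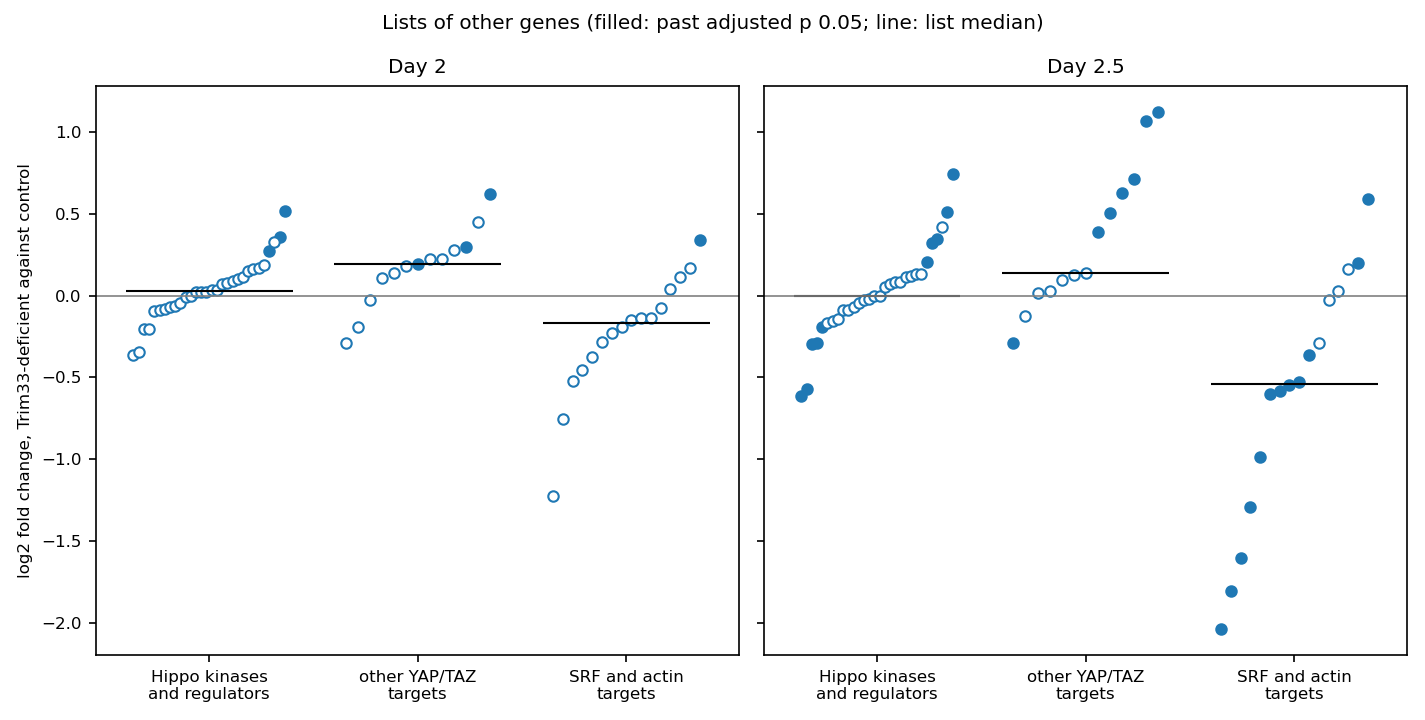
Log2 fold change (y axis) of each tested gene (points, filled where the adjusted p was under 0.05) of 3 lists, Trim33-deficient against control, for day 2 and day 2.5, with lines at the list medians. The SRF and actin list has its median at -0.54 on day 2.5, and the other YAP and TAZ targets at 0.14.

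Genes listed as cell type markers also moved with genotype. Whether each marks its listed type in these bodies was not tested. Counts of listed markers called on day 2.5 stand against 42.8% of all genes passing, 22% as a rise and 20.7% as a fall. Summed CPM of 6 endothelial markers was 73.4 to 82.1 in day 2 controls and 88.1 to 119 in day 2 Trim33-deficient bodies, and 46.5 to 48.7 against 113 to 136 on day 2.5, where 4 of 4 tested rose. Pecam1 made up most of that sum, with 62.7 and 81.1 CPM on day 2 and 33.8 and 80.6 CPM on day 2.5 in control and Trim33-deficient bodies. On day 2.5 Pecam1 rose 2.39-fold (adjusted p = 5.51e-05), Tek 2.78-fold (2.92e-06) and Tie1 3.11-fold (9.15e-05). Emcn was at 0 in all 12 libraries, and Cdh5 did not exceed 0.298 CPM. Summed trophoblast markers were at 27.8 to 38.0 against 35.6 to 47.3 CPM on day 2 and at 28.8 to 39.1 against 53.3 to 60.4 CPM on day 2.5. On day 2.5, 4 of 6 tested rose and 1 fell, Eomes. Tfap2c and Ascl2 carried the day 2.5 difference in that sum. In control and Trim33-deficient bodies Tfap2c was at 4.87 and 20.8 CPM and Ascl2 at 5.01 and 17.3 CPM. Eomes was at 22.1 and 11.1 CPM. Tfap2c rose 2.51-fold on day 2 (adjusted p = 0.000887) and 4.32-fold on day 2.5 (5.38e-07), and Ascl2 rose 3.49-fold on day 2.5 (3.21e-05). Gata3, a trophectoderm factor that TEAD4 acts on, rose on day 2.5 from 1.09 ± 0.213 to 3.52 ± 0.728 CPM (log2 fold change 1.72 ± 0.34, adjusted p = 0.000703), Cdx2 had a value of 0.70 ± 0.38 (adjusted p = 0.151), and Elf5 had 0 counts in all day 2.5 libraries.

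Fibroblast markers, in whose cells Ctgf and Cyr61 are high, summed to 30.8 to 38.0 against 25.4 to 29.8 CPM on day 2 and to 35.7 to 45.1 against 23.3 to 25.8 CPM on day 2.5, lower in Trim33-deficient bodies, with 3 of 5 tested falling and 1 rising on day 2.5. Thy1 carried most of the day 2.5 difference in that sum, at 21.3 and 7.42 CPM in control and Trim33-deficient bodies. Col3a1 went the other way and rose 2.10-fold on day 2.5 (adjusted p = 0.00341, edgeR). Postn had 1 count in all 12 libraries together. Markers of primitive and visceral endoderm summed to 26.8 to 32.9 against 26.3 to 29.7 CPM on day 2. On day 2.5 they summed to 34.3 to 44.3 against 28.9 to 32.5 CPM, with 2 of 6 tested rising and 2 falling. Dab2 carried the day 2.5 difference in the sum, at 27.4 and 18.1 CPM in control and Trim33-deficient bodies. Sox17 rose 3.58-fold that day (adjusted p = 0.00337, edgeR) from 0.283 CPM, near the floor, and Gata6 2.30-fold (0.0206) from 0.498 CPM. Pluripotent and epiblast markers summed to 5303 to 5679 against 4148 to 4474 CPM on day 2 and to 4665 to 5246 against 3140 to 3788 CPM on day 2.5, where 4 of 7 fell and 1 rose. Dnmt3b carried most of that difference, at 3478 and 2516 CPM on day 2 and 3211 and 1884 CPM on day 2.5 in control and Trim33-deficient bodies. Nanog had a log2 fold change of -0.58 on day 2 (adjusted p = 0.0353, edgeR) and of -1.26 on day 2.5 (7.6e-05). Fgf5 fell on day 2.5, with a log2 fold change of -0.56 (0.000159). Pou5f1 had a log2 fold change of -0.10 (adjusted p = 0.283) and -0.0037 (0.966) on the 2 days. Sox2 rose on day 2.5 by 0.34 (adjusted p = 0.000291). Whether endothelial or trophoblast cells were present, whether shares of any cell type differed, and what part this had in the member results, was not tested.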

How the data were processed

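The starting point was raw read counts per gene for 12 RNA libraries, as deposited. Per the submitters' processing notes, the authors used STAR, HTSeq and DESeq with build mm9. Tool versions, annotation and strand setting were not given in the sources used here. The 5 closing rows of each file, which name no gene, entered neither library sizes nor tests. They held 55.9 to 60.5% of reads as falling in no feature and 0.144 to 0.189% as ambiguous. In 1 file, 27 gene names turned into dates were restored by row position.

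From these counts CPM were computed on TMM-scaled library sizes. There were 24015 gene rows, of which 19581 held a count and 14356 passed filterByExpr. These were tested with edgeR 4.0.16 (R 4.3.3) by its robust quasi-likelihood method, with 4 groups, all 12 libraries and 8 residual degrees of freedom. Benjamini-Hochberg adjustment ran over all genes tested in each of 5 comparisons, with a threshold of 0.05. Each standard error is the log2 fold change divided by the root of F, and 95% intervals use 8 degrees of freedom. Alternatives were DESeq2 1.42.0, other size factors and filters, fits to the compared groups alone, replicate blocks, fits without Rn45s or without libraries that stood apart, and leaving out each library. The code was tested on simulated counts.

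All 10 members are described. From each other list up to 3 genes with the smallest adjusted p are named per day, with Tagln, Tead3, Gata3, Cdx2, Pou5f1, Sox2 and the marker genes at or near 0 added after their values were seen. Col1a1, also returned by this rule, is not described. The hypoxia and glycolysis genes that describe the libraries were also listed after the data had been seen. Members and lists were chosen with earlier results of these data known. Promoters are from RefSeq, and motifs were searched on both strands of each window.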

Additional observations from a re-analysis of the deposited data

Results flagged for a closer look

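The genotype effect of 2 genes of the wider YAP and TAZ target list differed between the days by the interaction test, 2 of 13 tested (15.4%), against 4.01% of all genes. That background of 575 genes was 119 to 1217 when 1 library was left out. For F3, tissue factor, levels were 7.11 ± 0.464 CPM in control and 7.75 ± 0.957 CPM in Trim33-deficient bodies on day 2, and 5.43 ± 0.331 and 11.8 ± 0.854 CPM on day 2.5 (SD, n = 3 each). The genotype effect of F3 on day 2.5 exceeded that on day 2 by 1.02 ± 0.18 on the log2 scale (adjusted p = 0.00993, edgeR), and the test passed in all 22 alternatives (highest adjusted p 0.0418). All 3 Trim33-deficient libraries of day 2.5 were above all controls of that day, while the day 2 groups overlapped.

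For Myof, myoferlin, levels were 5.03 ± 0.467 and 4.43 ± 0.327 CPM on day 2 and 3.16 ± 0.721 and 6.54 ± 0.859 CPM on day 2.5, in control and Trim33-deficient bodies (SD, n = 3 each). The difference between the genotype effects of Myof was 1.26 ± 0.25 on the log2 scale (adjusted p = 0.0147, edgeR), and it missed the threshold without day 2 Trim33-deficient replicate 3 (adjusted p = 0.0553). No member passed this test by edgeR, 1 had an unadjusted p under 0.05, and DESeq2 called 1, Tead2.

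The genotype effects of 4 genes listed as cell type markers also differed between the days by edgeR. The difference was 0.90 ± 0.21 for Pecam1 (adjusted p = 0.0375) and 0.84 ± 0.22 for Tek (0.0439). It was 1.92 ± 0.37 for Tie1 (0.0165) and 1.37 ± 0.31 for Ascl2 (0.0294), and all 4 effects were larger on day 2.5. These 4 genes were not run under the alternatives.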

How the results depend on the processing

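The genotype calls of Ctgf, Cyr61, Amotl2 and Lats2 on both days kept their direction and passed in all 23 alternatives, and the time calls of Ctgf, Cyr61 and Amotl2 in all 22. When each library was left out in turn, members called ranged from 4 to 5 for genotype on day 2, 6 to 7 on day 2.5, 3 to 4 for time in controls, 4 to 5 for time in Trim33-deficient bodies and 0 to 0 for the interaction. The interaction had 1 member called by DESeq2 (Tead2) and 1 without the 3 libraries that stood apart (Ctgf). Other settings gave 5 to 6, 7 to 8, 3 to 3 and 5 to 7 for the first 4 comparisons. With the replicate block over all libraries the counts were 5, 7, 3, 5 and 0, and with a replicate block within each day 6 on day 2, where Tead2 also passed (-0.39, adjusted p = 0.0465), and 7 on day 2.5. Deviations of same-numbered libraries correlated across genotypes at -0.079 to 0.172 on day 2 and at -0.033 to -0.009 on day 2.5. Across days they correlated at 0.032 to 0.451 in controls and at -0.018 to 0.182 in Trim33-deficient bodies. Control replicates 1 and 2 stood at 0.365 and 0.451, so these libraries may share more than a number. The main fit held no replicate block, since the labels do not say what the number marks.

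The sign of several effects that passed no threshold was not stable, and the cause was not tested. The Tead4 interaction was 0.23 without both Rn45s-rich libraries and 0.0254 without the 3 that stood apart, and Nov on day 2 was -0.25 and -0.49. With each library left out, the interaction ranged from -0.33 to 0.19 for Tead4, from -0.11 to 0.18 for Wwtr1 and from -0.11 to 0.16 for Lats2. Tead4 ranged from -0.0026 to 0.52 for genotype on day 2.5 and from -0.017 to 0.40 for time in Trim33-deficient bodies, Arhgef17 on day 2.5 from -0.0261 to 0.0649 and Nov on day 2 from -0.26 to 0.22. Genes called on day 2 numbered 1413, against 514 to 1617 with 1 library left out and 814 without both Rn45s-rich libraries. With 1 library left out, genes called numbered 1235 to 2393 for time in controls (2313 with all), 1101 to 2780 for time in Trim33-deficient bodies (2300) and 119 to 1217 for the interaction (575). Depth limits Ankrd1, with at most 5 counts in a library.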
